A study of Mus musculus with 10 samples.

Results

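Nppb, Has2, Ptgs2 and Hbegf are 4 genes whose products leave the cell or make a product that does: a natriuretic peptide, hyaluronan, prostaglandins and a growth factor. They were taken by gene name from a list, 4 of 21934 gene symbols, and all 4 are in both deposited tables. They were chosen by how their input RNA and footprints, in TPM, differed between the 10 libraries, so the differences below describe the chosen genes and no test was run on them. Ribosome profiling sequences the mRNA stretches that ribosomes shield from nuclease (footprints), and input libraries give the amount of each polyadenylated mRNA.

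Nppb encodes B-type natriuretic peptide, which is secreted, is best known from stretched heart muscle and acts through receptors that make cyclic GMP. Has2 is a hyaluronan synthase of the plasma membrane that extrudes its sugar polymer into the surroundings. Ptgs2 is the inducible cyclooxygenase, which turns arachidonic acid into the precursor of all prostaglandins, and Hbegf is a membrane-anchored ligand of the EGF receptor that proteases release. In many cell types these mRNAs are made quickly after stress, stretch or growth factors, and that of Ptgs2 carries AU-rich elements that shorten its life.

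One table of TPM (mRNA level per length of gene, with the same sum in each library) holds 6 libraries of a monoclonal immortalized bone marrow-derived macrophage line (iBMDM). These are labelled WT, sgWdr4-1 (guide 1) or sgWdr4-2 (guide 2), the last 2 for lentiviral guide RNAs against Wdr4 followed by puromycin selection. The other table holds 4 libraries of tumour-associated macrophages (TAM), sorted by the F4/80 protein from orthotopic liver tumours of Hepa1-6 hepatoma cells. Their mice are labelled Wdr4 ff (ff, floxed) or Wdr4 cKO (cKO, a myeloid-specific knockout). The driver of the deletion, the age of the mice and how many were pooled are not stated in the labels. Each of the 5 conditions has 1 input and 1 footprint library, so there is no replicate error, no p-value and no SD anywhere below. Wdr4 encodes the partner of Mettl1, the enzyme that puts 7-methylguanosine on tRNA, and the series asks how Wdr4 acts on translation efficiency.

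Some values went with the labels and others against them. Wdr4 input was lower under guide 1 (70.1% of WT) and in cKO (52.6% of ff), the direction of the labels, and was 99.8% of WT under guide 2. Wdr4 footprints went the other way in all 3, at 1.82 times WT under guide 1, 2.01 times WT under guide 2 and 2.08 times ff in cKO. Of 16 macrophage markers 13 were under 1 TPM in every input, and both Adgre1, the gene of F4/80, and Aif1 had a value of 0 in each of the 10 libraries. The summed level of the 16 lay between 17.7 and 23.6 TPM in the 5 inputs, most of it Cd14. Of 12 fibroblast and stellate cell markers 7 reached 5 TPM in every input and 5 were under 1 TPM in every input. The 12 summed to 4434 TPM in WT, 5148 under guide 1, 4505 under guide 2, 4433 in ff and 6325 in cKO. Acta2 was the largest part of that sum (2397 to 3785 TPM). The sum was thus highest in the 2 inputs where the members' input was highest. Its part in those differences was not tested. The guide 1 footprint library had 0.781% of its TPM in mitochondrially encoded genes, against 9.94% to 14.6% in the other footprint libraries. Read depth is unknown because TPM keeps none. In bulk RNA, fewer cells of a type and less RNA per cell cannot be told apart.

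Changes are differences of log2(TPM + 1), a scale that understates changes of low genes, and a gene is called higher or lower when at least 2-fold apart (1 on this scale). Measured genes have a mean of at least 5 TPM in both input and footprints of a table. All 4 members passed that filter in both tables. Translation efficiency is the log2 footprint value minus the log2 input value of a condition.

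Ptgs2 was the most abundant of the 4 in every footprint library and in all 5 inputs. Input reached 112 TPM in the WT library, 189 TPM under guide 1, 114 TPM under guide 2, 114 TPM in ff and 294 TPM in cKO. Its footprints were 512 TPM in WT, 489.7 TPM under guide 1, 179 TPM under guide 2, 644 TPM in ff and 192 TPM in cKO. Input was thus highest in cKO and guide 1 and nearly equal in the other 3 libraries, whereas footprints were low in guide 2 and cKO and high in the other 3. Between cKO and ff the input difference was 1.36 and the footprint difference -1.74, and translation efficiency was lower by 3.10, the 19th lowest of 7101 measured genes. Under guide 2 the input difference was 0.03 and the footprint difference -1.51. Under guide 1 these were 0.75 and -0.06.

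The promoter of Ptgs2 is shown because this gene held the most RNA and footprints of the 4. RefSeq's GRCm38.p6 table gives the 250 bases before its start at chr1:150099781-150100030, plus strand, and the capitals mark a C/EBP motif (TTGCNNAA) at 69 to 62 bases before the start.
Ptgs2: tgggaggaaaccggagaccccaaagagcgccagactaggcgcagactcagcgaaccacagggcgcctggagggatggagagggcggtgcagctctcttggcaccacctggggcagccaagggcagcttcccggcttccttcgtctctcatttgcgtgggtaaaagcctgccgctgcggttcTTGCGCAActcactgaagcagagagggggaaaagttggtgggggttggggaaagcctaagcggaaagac
That motif occurs on either strand in 10.8% of the 32851 promoters of 300 bases in the table. An E-box (CACGTG, in 7.15% of promoters) lies at bases 17 to 22 after the start and is not printed. The letters of AP-1 (TGANTCA, 7.81%), the cAMP response element (TGACGTCA, 1.79%), the CHOP-ATF4 composite element (TGATGNAA, 3.97%), NF-kB (1.63%) and the TATA box (TATAAA, 13.6%) are not in this window. The table covers 2 of the 4 members; Has2 and Hbegf are not among them.

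Nppb had the widest spread of footprints. Its input was low throughout, at 5.91 TPM in WT, 13.2 TPM under guide 1, 2.96 TPM under guide 2, 6.66 TPM in ff and 14.8 TPM in cKO. Its footprints were 34.4 TPM in WT, 38.6 TPM under guide 1, 6.44 TPM under guide 2, 67.2 TPM in ff and 7.88 TPM in cKO. Guide 2 was the lowest library of both kinds, and cKO joined it only in footprints. In cKO the input was higher by 1.04 and footprints lower, at 11.7% of ff (log2 difference -2.94, the 6th lowest of 7101). Translation efficiency differed by -3.98. Under guide 2 Nppb was the only member with less input than WT, at 50% of WT (-0.80, the 8th lowest of 7536 genes). Its footprints were at 18.7% of WT (-2.25). The input of 2.96 TPM lies under the 5 TPM of the filter, which uses a mean over conditions. In that library it was above 0.0% of measured genes, so the rank rests on 1 value near the floor. Under guide 1 input was higher by 1.03 and footprints differed by 0.16.

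For Nppb 2 stretches of 30 bases are shown, since they hold the motifs found in its window (GRCm38.p6, plus strand). They are at chr4:147985794-147985823 and chr4:147985857-147985886, and the capitals mark a TEAD motif (GGAATG) and a pair of GATA motifs (GATAA) in the first, and the TATA box in the second.
Nppb upstream: aGGAATGcagctGATAAatcagaGATAAcc
Nppb TATA: actcagccccagTATAAAaggcagaggcac
Distances are counted from the start that the promoter table uses, at chr4:147985900. RefSeq's gene record for Nppb opens 114 bases earlier, at chr4:147985786, so both stretches lie inside that record; for Ptgs2 the 2 starts are the same. The TEAD motif lies 105 to 100 bases before the table's start, the GATA motifs at 94 to 90 and 83 to 79, and the TATA box at 31 to 26. TEAD and GATA letters occur in 14.7% and 25.4% of promoters. These 2 and the C/EBP motif were added to the search after both promoters had been read. A match is a description of the letters and says nothing of what binds there.

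Has2 had input of 8.27 TPM in WT, 18.8 TPM under guide 1, 8.97 TPM under guide 2, 8.75 TPM in ff and 36.9 TPM in cKO. Footprints were 16.3 TPM in WT, 17.3 TPM under guide 1, 3.90 TPM under guide 2, 18.7 TPM in ff and 6.69 TPM in cKO. The library with the most Has2 mRNA, cKO, therefore had the second lowest Has2 footprints. Only 4 of 7101 measured genes had a larger input excess in cKO, where Has2 input was 4.21 times that in ff. Its translation efficiency was lower by 3.31 (14th lowest). Under guide 2 footprints were at 24.0% of WT with input at 108%, and the -1.92 for translation efficiency was the 31st lowest of 7536. Under guide 1 input was 2.27 times WT and footprints 1.06 times, so that translation efficiency differed by -1.01, just past the 2-fold line.

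Hbegf moved by smaller steps. Input reached 106 TPM in the WT library, 158 TPM under guide 1, 108 TPM under guide 2, 113 TPM in ff and 171 TPM in cKO. Its footprints were 241 TPM in WT, 279.7 TPM under guide 1, 146 TPM under guide 2, 232 TPM in ff and 159 TPM in cKO. Guide 2 and cKO were again the lowest 2 footprint libraries. The cKO footprints were at 68.6% of ff and the guide 2 footprints at 60.7% of WT, neither past 2-fold. Its translation efficiency differed by -1.13 in cKO, -0.74 under guide 2 and -0.36 under guide 1.

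**Figure D1:**
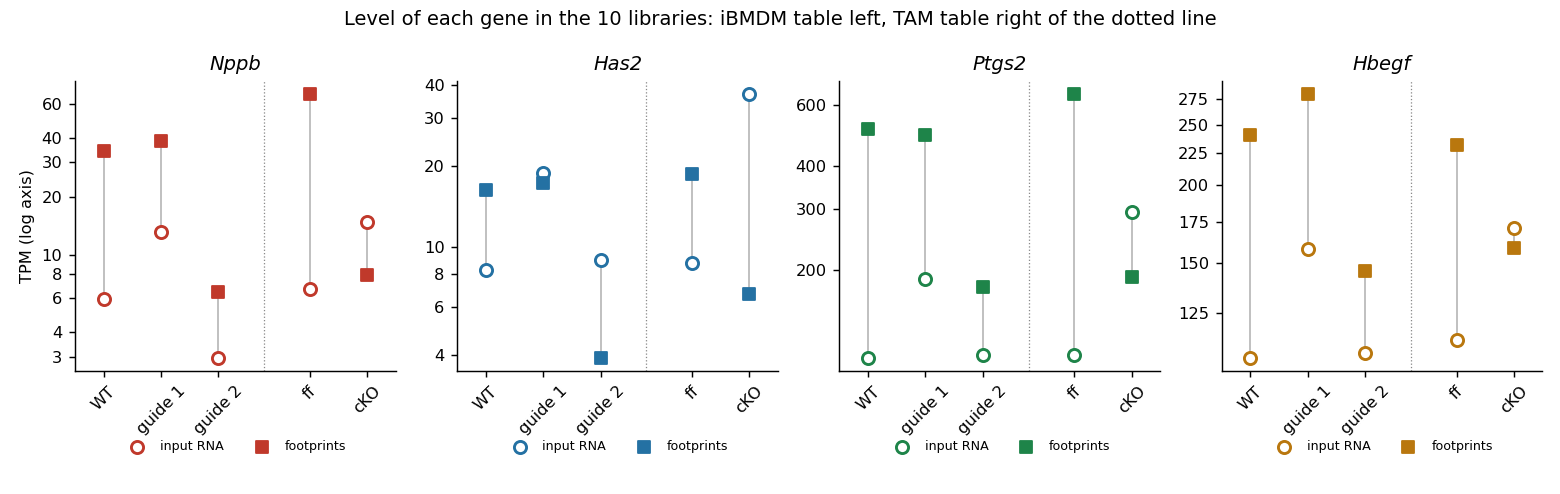
Input RNA (open circles) and footprints (filled squares) of the 4 genes in TPM on a log axis, 1 library per point, with the iBMDM conditions left and the TAM conditions right of the dotted line. In WT, guide 1 and ff the footprints of Nppb, Ptgs2 and Hbegf lie above the input, and in cKO the footprints of all 4 genes lie below it.

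Read together, the members split by kind of library. In input RNA 3 of 4 were called higher in cKO (1.42% of measured genes were), 2 of 4 under guide 1 (0.318%) and 0 of 4 under guide 2 (0.0265%). After rescaling to the same median, Nppb input in cKO (0.957) fell short of 2-fold. So did Nppb (0.928) and Has2 (0.988) input under guide 1. In footprints 3 of 4 were called lower in cKO (8.15% of measured genes) and 3 of 4 under guide 2 (4.63%), but 0 of 4 under guide 1 (10.3%). The 3 are Nppb, Has2 and Ptgs2 in both comparisons. Translation efficiency was called lower for 4 of 4 in cKO (16.0% of measured genes), 3 of 4 under guide 2 (4.87%) and 1 of 4 under guide 1 (13.7%). No member was called lower in input, against 0.169% of measured genes in cKO, 0.0796% under guide 1 and 0.0398% under guide 2. None was called higher in footprints (2.73%, 16.1% and 3.03% in cKO, guide 1 and guide 2) or in translation efficiency (4.03%, 14.8% and 3.53%). The choice of genes used these values, so the counts support nothing beyond a description.

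In all 3 comparisons the members' median translation efficiency difference lay below that of all measured genes, through different terms. Under guide 1 only Has2 was called, and the members ranked from 1014th lowest (Has2) to 2669th lowest (Hbegf) of 7536. In cKO the members' median was 1.20 for input and -1.55 for footprints, beside 0.06 and -0.20 over all measured genes. Under guide 2 it was 0.02 for input and -1.67 for footprints (0.01 and -0.03 over all). Under guide 1 it was 0.89 for input and 0.12 for footprints (0.08 and 0.09 over all). The resulting medians for translation efficiency were -3.21 in cKO, -1.49 under guide 2 and -0.85 under guide 1, beside -0.25, -0.05 and 0.01. Both guides are set against the same WT libraries, so their values are not independent of each other. The difference between guides was not tested.

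**Figure D2:**
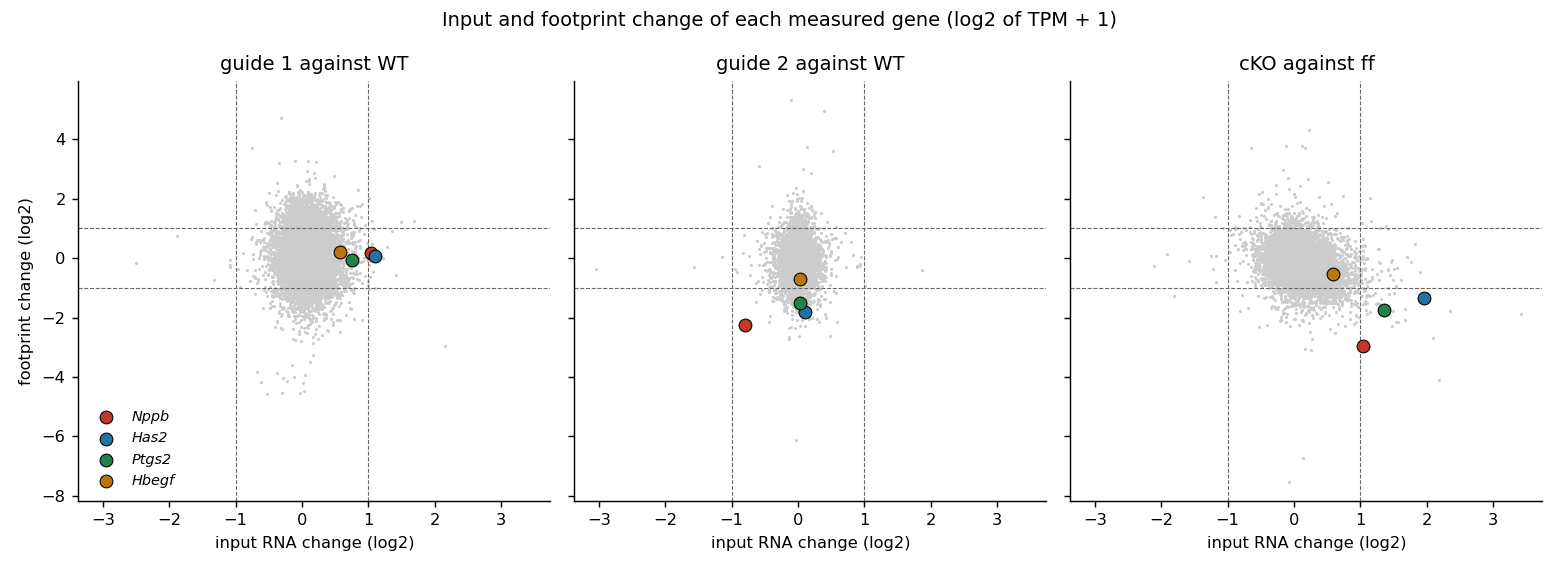
Change of input RNA (horizontal) against change of footprints (vertical), both on the log2(TPM + 1) scale, for every measured gene (grey) and the 4 members (coloured), 1 panel per comparison; dashed lines mark 2-fold. The members sit to the right at a footprint change near 0 under guide 1 and to the lower right in cKO. Under guide 2 Has2 and Ptgs2 lie past the lower line at an input change near 0, Nppb lies lower and to the left, and Hbegf, at -0.72 in footprints, lies inside the line among other genes.

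The cKO pattern of more mRNA with fewer footprints was shared by a small set. Input at least 2-fold higher together with footprints at least 2-fold lower was met by 38 of 7101 genes (0.535%). Among them were Nppb, Has2 and Ptgs2 and the listed genes Edn1 and Errfi1. After rescaling to the same median, Nppb no longer met the input side (0.957). Of the 33 of the 38 measured in the iBMDM table, 22 (66.7%) had footprints at least 2-fold lower under guide 2 (4.63% of all measured genes). Input was 2-fold higher for 0 of the 33 under guide 2 and for 8 under guide 1 (0.318% of all). The 33 include Nppb, Has2 and Ptgs2, which were chosen with these values, so the shares partly repeat that choice. Under guide 2 the footprints of these members differed by -2.25, -1.82 and -1.51. Footprints under guide 1 were 2-fold lower for 1 of the 33 (Prune2, at -1.02, beside 10.3% of all) and 2-fold higher for 6, a share near the 16.1% of all. Across all 7101 genes the input and footprint differences between cKO and ff ran against each other (Pearson r = -0.275, across genes, which are not replicates), while r was -0.019 under guide 1 and 0.016 under guide 2.

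In the cKO comparison the direction rests on which footprint library bears which label. The highest footprints of Nppb, Has2 and Ptgs2 were in the library labelled ff, and the highest input in that labelled cKO. With the ff and cKO footprint libraries exchanged, the translation efficiency differences would be 1.90 for Nppb, -0.60 for Has2, 0.38 for Ptgs2 and -0.05 for Hbegf. The correlation across genes would turn to 0.275 by construction, since each footprint difference only changes sign. More input and fewer footprints in cKO would be met by 5 genes (0.0704%). That 0 members are among them also follows from the change of sign. Whether these labels are right was not tested. The median gene lay at -0.25, and after rescaling to the same median the differences as labelled were -3.69 for Nppb, -3.02 for Has2, -2.81 for Ptgs2 and -0.84 for Hbegf, the last no longer past 2-fold.

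Translation efficiency as a level shows where the members stood among other mRNAs. In WT it was 2.36 for Nppb, above 99.0% of measured genes, 2.18 for Ptgs2 (98.6%), 1.17 for Hbegf (92.5%) and 0.90 for Has2 (89.0%), where the median gene was at -0.58. In ff it was 3.15 for Nppb (above 99.6%), 2.49 for Ptgs2 (98.7%), 1.03 for Hbegf (88.4%) and 1.01 for Has2 (88.2%). In WT and, as labelled, in ff all 4 mRNAs thus carried more footprints per unit of input than most genes. In cKO the level was -0.83 for Nppb (above 50.6%), -0.62 for Ptgs2 (57.2%), -0.10 for Hbegf (70.8%) and -2.30 for Has2 (12.8%), with the median gene at -0.85. With the ff and cKO footprint libraries exchanged, the ff levels would be 0.21 for Nppb (above 75.4%), 0.74 for Ptgs2 (85.7%), 0.49 for Hbegf (81.4%) and -0.34 for Has2 (61.9%). The cKO levels would then be 2.11 for Nppb (98.4%), 1.13 for Ptgs2 (91.6%), 0.44 for Hbegf (80.8%) and -0.94 for Has2 (41.4%). Under guide 2 Nppb (90.4%), Ptgs2 (86.1%) and Hbegf (81.8%) stayed in the upper range and Has2 (36.3%) did not. The value of every member was lower under guide 1 than in WT and lower again under guide 2.

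**Figure D3:**
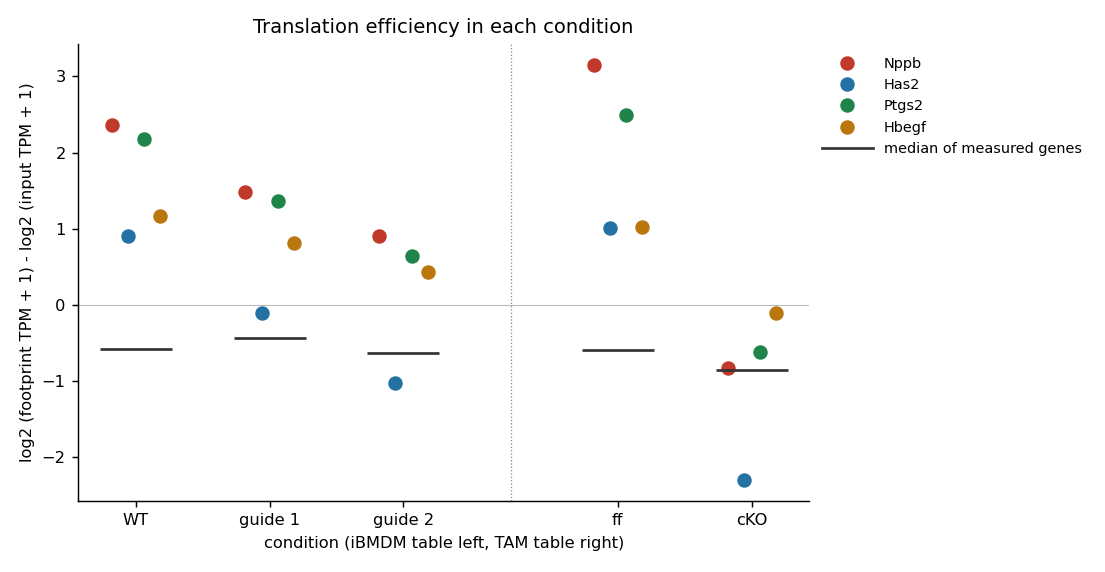
Translation efficiency of the 4 genes in each condition, as log2(footprint TPM + 1) minus log2(input TPM + 1), 1 value per gene and condition, with short bars for the median of measured genes. All 4 points lie above the bar in WT, guide 1 and ff, while in cKO Nppb, at -0.83, lies at the bar and Has2, at -2.30, below it.

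The close relatives of the members were mostly at or near 0. Ptgs1, the constitutive cyclooxygenase, lay between 0.403 and 1.52 TPM in input, so Ptgs2 was the main cyclooxygenase mRNA. Has1 reached 0.225 TPM and Has3 0.332 TPM in any input, which leaves Has2 as the synthase with most mRNA. Nppc was listed at 0 in all 10 libraries. Nppa, the atrial peptide, reached 0.301 TPM in input but had footprints of 2.42 to 9.46 TPM. Of 5 cardiac markers, 4 showed the same excess of footprints over input. The other, Tnnt2, had 19.2 to 30.9 TPM of input. Its footprints were below input under guide 1 (21.5 and 30.9 TPM) and in cKO (23.6 and 27.2 TPM), and above it in WT, guide 2 and ff. The 4 (Myh6, Myl2, Tnni3 and Actc1) summed to at most 0.623 TPM in any input. Their footprints summed to 126 TPM in WT, 104 TPM under guide 1, 120.1 TPM under guide 2, 219.7 TPM in ff and 125 TPM in cKO. They were thus highest in ff, as Nppb footprints were, but nearly equal in WT and guide 2, where Nppb footprints were 34.4 and 6.44 TPM. Their part in the footprint levels and translation efficiency of Nppb was not tested. Of the 10 other EGF family ligands 4 were under 1 TPM in every input, and the highest were Nrg1 (7.76 to 9.69 TPM), Ereg (3.10 to 12.9 TPM) and Egf (3.59 to 8.14 TPM). Hbegf, at 106 to 171 TPM, was above each of them.

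Of 95 further genes of these pathways and of other secreted stress factors, 34 were measured in the TAM table and 33 in the iBMDM table, and 41 were under 1 TPM in every input. The lists were drawn up with earlier results of these data known, so the counts describe the listed genes and support nothing further. Their median translation efficiency difference in cKO was -0.90, beside -0.25 over all measured genes. In cKO 12 of 34 were called lower in translation efficiency and 0 higher (16.0% and 4.03% of all measured genes). Under guide 2 these were 6 and 1 of 33 (4.87% and 3.53%), the higher one being the natriuretic clearance receptor Npr3 (1.20). Under guide 1 they were 8 and 3 (13.7% and 14.8%), the higher ones being Pla2g4a, Ptgr1 and Hmmr.

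The measured prostaglandin genes other than Ptgs2 stayed within 2-fold in cKO translation efficiency. Of the 22 listed 4 were measured, and 0 of 4 were called in cKO or under guide 2. With 16.0% of all measured genes called lower in cKO and 4.87% under guide 2, 0 of 4 does not set the list apart. Genes under the filter could differ by more: the prostaglandin E2 receptor Ptger4 had 0.471 (ff) and 3.11 TPM (cKO) of input, and its footprints were 3.43 TPM in ff and listed at 0 in cKO. Pla2g4a, the phospholipase that frees arachidonic acid, differed by -0.76 in cKO, -0.66 under guide 2 and 1.12 under guide 1, and Ptgr1, a prostaglandin reductase, by -0.88, 0.21 and 1.41. These 2 were the members of the list called higher under guide 1, where 14.8% of all measured genes were. Ptges3, a prostaglandin E synthase that is also an Hsp90 co-chaperone, was the most abundant, with a mean input of 609.9 TPM and values of 0.37, 0.47 and -0.13. The inducible synthase Ptges, often partnered with Ptgs2, reached 0.0970 TPM in input.

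Among natriuretic genes the receptor Npr2 was called lower in all 3 comparisons. Of 10 listed genes 4 were measured. In cKO 2 of these, Npr2 and Prkg2, were called lower, beside 16.0% of all measured genes. Npr2 input reached 20.7 TPM in the WT library, 27.6 TPM under guide 1, 20.8 TPM under guide 2, 20.6 TPM in ff and 28.1 TPM in cKO. Its footprints were 18, 5.76, 7.73, 18.4 and 5.16 TPM in the same order, so they were low in all 3 libraries labelled as targeted. Translation efficiency of Npr2 differed by -2.09 in cKO, -1.12 under guide 2 and -1.89 under guide 1. Npr2 makes cyclic GMP in response to the C-type peptide. Prkg2, a cyclic GMP-dependent kinase and the most abundant gene of the list (mean input 53.2 TPM), differed by -1.19, -0.40 and 0.23.

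The hyaluronan list held 7 measured genes of 18, of which 0 were called in cKO or under guide 2. With 16.0% of all measured genes called lower in cKO and 4.87% under guide 2, 0 of 7 does not set the list apart. Ugdh, which makes the UDP-glucuronic acid that Has2 polymerizes, differed by -0.89, -0.41 and 0.43 in cKO, guide 2 and guide 1. Cd44, the hyaluronan receptor and the most abundant of the list (mean input 431 TPM), differed by -0.94, -0.68 and -0.92. Both lie below 0 in cKO and under guide 2 without reaching 2-fold. Under guide 1, 1 gene was called lower, the hyaluronidase Hyal2 (-1.14), and 1 higher, the hyaluronan-binding mitotic protein Hmmr (1.5). Those shares are near the 13.7% and 14.8% of all measured genes.

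In the EGF list 10 of 22 genes were measured in each table. In cKO 4 were called lower, beside 16.0% of all measured genes. They were Ereg, a second ligand (-2.46), Errfi1, an inhibitor of the EGF receptor (-2.30), Adam12, a protease that can shed Hbegf (-2.04), and Egf (-1.58). Ereg had 3.78 (ff) and 12.9 TPM (cKO) of input, and its footprints were 20 and 10.1 TPM. Errfi1 input was 141 and 287 TPM, and its footprints were 35.1 and 13.8 TPM. Both thus showed the members' crossing of more input and fewer footprints, as did Egf with 3.59 and 8.14 TPM in input and 13.5 and 8.70 TPM in footprints. Under guide 2, 3 of 10 were called lower, beside 4.87% of all measured genes. They were Ereg (-1.52), Nrg1 (-1.355) and Adam12 (-1.03), while Errfi1 differed by -0.50. Egf was measured only in the TAM table and Nrg1 only in the iBMDM table. Under guide 1, 4 of 10 were called lower, beside 13.7% of all measured genes. They were Adam12 (-2.21), Ereg (-1.90), Adam10 (-1.28) and Erbb2 (-1.17). Adam17, the main sheddase of the family, differed by -0.32, -0.59 and -0.10 in cKO, guide 2 and guide 1, and Cd9, a tetraspanin that binds membrane-anchored Hbegf, by -0.59, -0.45 and -0.60. The receptor Egfr had 3.82 to 5.40 TPM of input and was under the filter in both tables.

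The list of other secreted stress factors had the lowest cKO median, at -1.56 over 9 measured genes of 23. This list was drawn up with earlier results of these data known, so its counts are a description. Of the 9, 6 were called lower and 0 higher, beside 16.0% and 4.03% of all measured genes. They were the chemokine Cxcl1 (-3.13), Edn1, which encodes the vasoconstrictor endothelin (-2.35), Vegfa (-1.88), the activin antagonist Fst (-1.83), the activin subunit Inhba (-1.56) and the macrophage growth factor Csf1 (-1.11). Under guide 2 the median was -0.65 over the 8 measured genes, with 2 called lower, Edn1 (-1.11) and Fst (-1.02), beside 4.87% of all. Under guide 1 the median was -0.35 with 1 called lower, Fst (-1.34), a share near the 13.7% of all. Vegfa footprints were 66.1 TPM in WT, 80.1 TPM under guide 1, 42.7 TPM under guide 2, 65.2 TPM in ff and 35.8 TPM in cKO, so that guide 2 was the lowest of the iBMDM footprint libraries and guide 1 the highest.

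**Figure D4:**
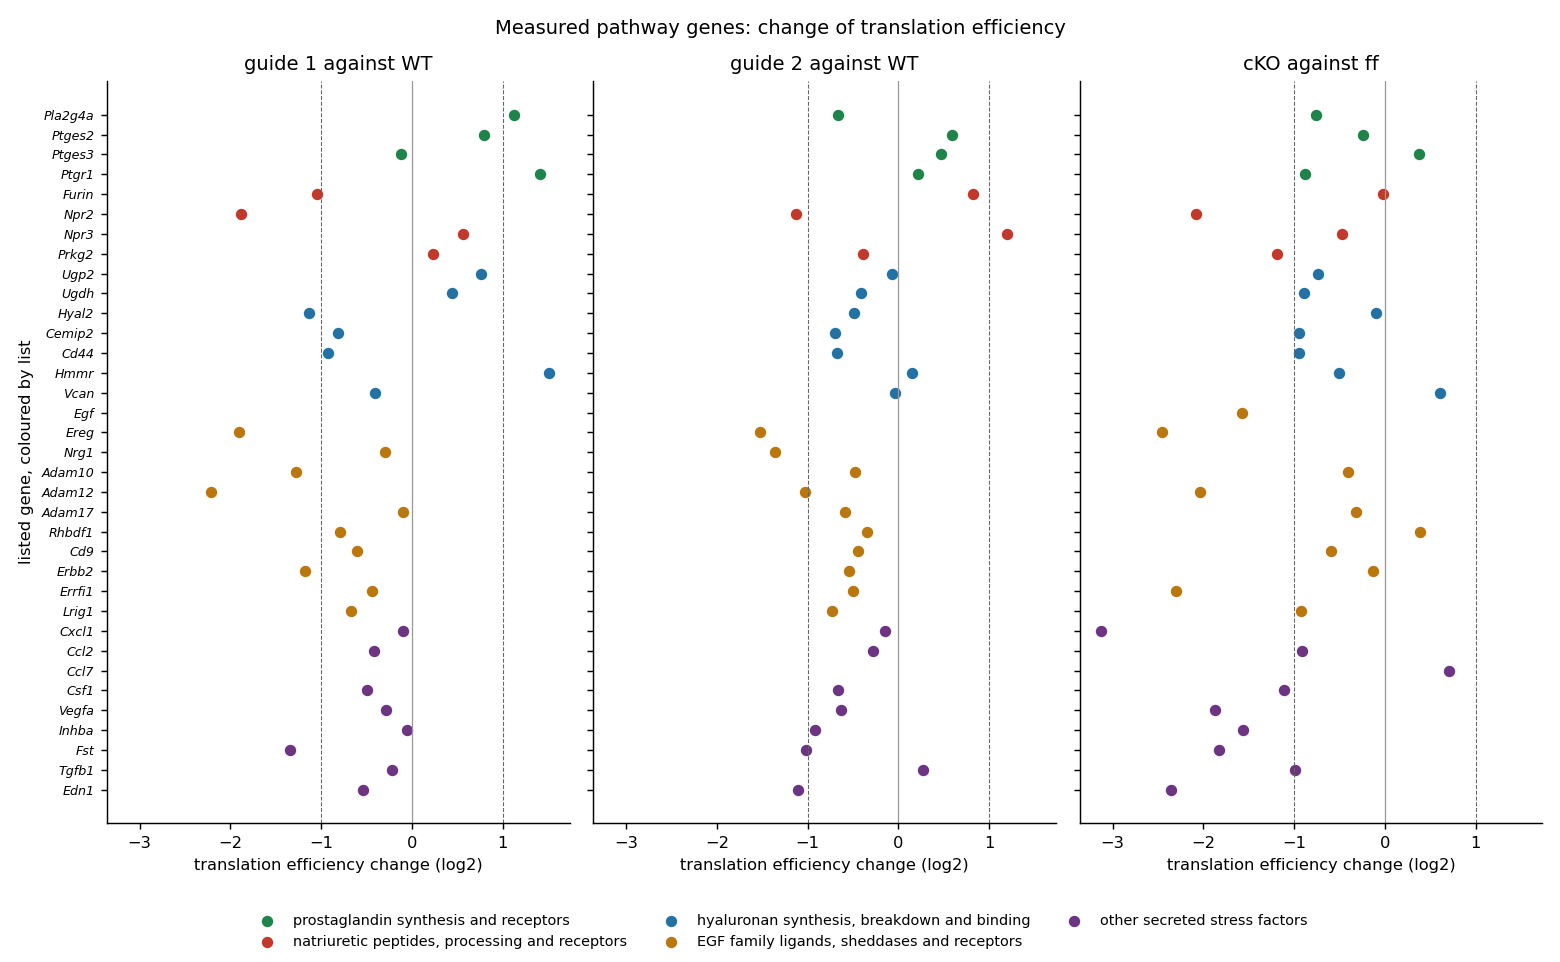
Change of translation efficiency (log2) of each measured listed gene, 1 point per gene coloured by list, in the 3 comparisons; dashed lines mark 2-fold. In cKO 12 points lie past the lower line and 0 past the upper one, and under guide 1 there are 8 and 3.

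Over all 10 libraries Edn1 had the pattern most like that of the 4 members. Likeness was Pearson's r between a gene and the members' mean, over 10 libraries, after the log2 values were centred within each table and kind, which leaves 6 values free to vary. By this measure r was 0.998 for Edn1, 0.994 for Pdlim7, a cytoskeletal adaptor, 0.993 for Saraf, a regulator of calcium entry, 0.992 for Acvr1, a receptor of the BMP family, and 0.988 for Lgals8, a galectin. The order rests on the guide 1 libraries: without them the highest r was that of Stim1, a calcium sensor of the endoplasmic reticulum (1.0), and Edn1, still at 0.998, was not among the first 6. Edn1 input reached 40.2 TPM in the WT library, 65.4 TPM under guide 1, 37.4 TPM under guide 2, 41.4 TPM in ff and 90.1 TPM in cKO. Its footprints were 158, 176, 67.8, 184 and 77.0 TPM in the same order. The members correlated with each other between 0.887 (Nppb and Has2) and 0.973 (Has2 and Hbegf). With so few libraries, 324 of 6839 other genes reached 0.9, so a high r alone does not set a gene apart.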

How the data were processed

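The authors deposited TPM for 5 input and 5 footprint libraries of mouse cells in 2 tables. The submitters' processing notes name fastp 0.18.0 and Bowtie2. For quantifier, build and annotation nothing is stated there, in the labels or in the headers. TPM sums to about 1000000 per library, so values are relative within a library, and depth is unknown. Each table has 21956 rows and 21934 symbols; for repeated symbols (42 rows, Nrg1 among them) the row with the highest mean was kept. Of the symbols 19910 matched RefSeq.

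Measured genes averaged 5 TPM or more in input and also in footprints (7536 iBMDM, 7101 TAM). Differences of log2(TPM + 1) were taken within a table, because the tables were normalised separately; levels set side by side across tables are descriptive. Genes at least 2-fold apart were called. With 1 library per condition and members chosen from these values, no test was run. The step was tested on simulated data.

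The members and lists were chosen with earlier results of these data known. Named were the members, their paralogs, the most abundant gene of each list, listed genes past 2-fold in cKO translation efficiency, and the 6 genes most like the members; some genes these rules take are not reported here. Added after their values were seen were Ptges, Pla2g4a, Ptgr1, Ugdh, Hyal2, Hmmr, Npr3, Adam10, Adam17, Egfr, Erbb2, Ptger4, Stim1 and Prune2. Protein sequences were not used here, so the planned protein comparison was not made. Alternatives were other pseudocounts, filters, rescalings and exchanged TAM footprint libraries. Computation used numpy 2.4.6 and pandas 2.3.3 under Python 3.11.15.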

Additional observations from a re-analysis of the deposited data

Results flagged for a closer look

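The guides differed from each other for some members, each relative to the same WT libraries, with 1 library each. The differences were not tested. Nppb input lay on opposite sides of WT, while in footprints guide 1 lay near WT and guide 2 below it. For Nppb the guides differed by 1.84 in input (1.03 under guide 1, -0.80 under guide 2) and by 2.41 in footprints (0.16 and -2.25). Footprints differed by 1.90 for Has2 (0.09 and -1.82) and by 0.93 for Hbegf (0.22 and -0.72). The guide 1 footprint library is the one with 0.781% mitochondrially encoded TPM; its part in these differences was not tested.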

How the results depend on the processing

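No paired analysis was possible because each condition has 1 library of each kind. Dropping the filter leaves each member change as it was by construction, since the filter only selects genes. With a pseudocount of 0.1, all 36 member changes kept their side of 2-fold. With a pseudocount of 5, 32 of 36 did, and with rescaling to the same median 32 of 36. The other 4 in each were no longer past 2-fold, among them, with rescaling to the same median, Nppb input in cKO (0.957). After removal of histone, ribosomal protein and mitochondrially encoded genes, 34 of 36 did. A change of sign inside 2-fold was not counted: Has2 footprints under guide 1 went from 0.09 to -0.05 with rescaling to the same median.

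Exchanging the ff and cKO footprint libraries turned the cKO footprint differences to 2.94 for Nppb, 1.36 for Has2 and 1.74 for Ptgs2 (median 1.55, 3 higher, 0 lower), and those of translation efficiency to 1.90 for Nppb and 0.38 for Ptgs2 (median 0.17, 1 higher, 0 lower). Of the 34 measured pathway genes, 0 would then be lower and 2 higher. The correlation of input with footprint differences across genes turned to 0.275. Its sign and those of the footprint differences turn by construction. The genes with more input and fewer footprints went from 38 to 5, or to 16 with a mean of at least 20 TPM. These 3 checks were chosen after seeing the data.

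A mean of at least 20 TPM left out Nppb and Has2 in both tables by construction. In cKO it left 1 member higher in input (median 0.98), 1 lower in footprints and 2 lower in translation efficiency, with 6 pathway genes lower. Under guide 2 it left 1 member lower in footprints and 1 in translation efficiency, with 1 pathway gene lower and 0 higher. Under guide 1 it left 0 members higher in input and 0 lower in translation efficiency, with 1 pathway gene lower and 1 higher. Fewer listed genes pass that filter, and these pathway counts have no share over all genes beside them.

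Members higher in input under guide 1 were also 0 with a pseudocount of 5 or rescaling to the same median. Members lower in translation efficiency there were 0 with a pseudocount of 5 and 2 after removal of histone, ribosomal protein and mitochondrially encoded genes and rescaling. With a pseudocount of 5, pathway genes lower in translation efficiency were 5 under guide 1 and 2 under guide 2, with 0 higher under guide 2. With no filter they were 22 in cKO (1 higher), 14 under guide 1 and 13 under guide 2 (3 higher). All 95 listed genes enter there, instead of the 34 (TAM) and 33 (iBMDM) measured ones. No share over all genes under the same setting is set beside these pathway counts, so no excess is read from them. The cause of these shifts was not tested.

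Counts over all measured genes moved by more than 1.5 times in 60 of 112 cases. For cKO translation efficiency, 1135 lower and 286 higher became 728 and 182 with a pseudocount of 5, 399 and 125 with at least 20 TPM, 2241 and 528 with no filter, and 641 and 596 with rescaling to the same median. They became 874 and 433 without the abundant classes, and 290 and 393 with exchanged footprints. Of the 6 genes most like the members, 1 (Saraf) was among the top 6 without the guide 1 libraries, and all 6 kept r of at least 0.986 there, where 1033 of 6839 genes reached 0.9.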
